A study of Drosophila melanogaster with 12 samples.

Results

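The genes described here encode the proteins of the cytoplasmic ribosome of Drosophila melanogaster (RP genes). They were taken by symbol, as the genes whose names begin with RpL or RpS and that encode a protein of the cytoplasmic ribosome, and they number 88 of the 13929 genes counted. Of 92 such symbols, RpS3A was left out by the rule, and RpL24-like, RpLP0-like and RpL7-like were left out as ribosome assembly factors. The 88 genes comprise 48 of the large subunit, 3 of its stalk (RpLP0, RpLP1 and RpLP2) and 37 of the small subunit. The proteins of the mitochondrial ribosome carry other symbols (mRpL, mRpS) and are not among them.

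Nuclear RNA of photoreceptors was sequenced in 12 libraries, 3 from each of 4 groups of male flies, to ask what loss of Clock (Clk) activity does to gene expression in the adult eye. In Rh1>ClkDN flies the outer photoreceptors express a dominant-negative Clk that pairs with Cycle but cannot bind DNA, and in Rh1>Ctrl flies they express LacZ. The groups were collected at D1 and at D10, all at Zeitgeber time (ZT) 9, and the sample titles call the earlier age day 2. Flies of all 4 groups were w, carried UAS-GFP-Msp300KASH at attP2 and rh1-GAL4 3 with ry[506], and differed only in UAS-ClkDN or UAS-LacZ. The KASH tag marks the nuclear envelope of the cells in which Rh1-Gal4 is active, the outer photoreceptors, and was used to collect their nuclei from pooled heads, so the RNA measured is nuclear and not the pool of RNA that ribosomes translate. The labels name the source as retina, although heads were collected.

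Each cytoplasmic ribosome contains 1 copy of nearly every RP, arranged around ribosomal RNA, with the stalk proteins as the exception. RP genes are therefore expressed at similar and high levels in most cells, and in flies their promoters start transcription at a pyrimidine-rich initiator served by the TBP-related factor Trf2. Losing 1 copy of many of them slows fly development and thins the bristles, the Minute phenotype. Several fly RPs have a second gene, and many of those second genes are used mainly in the testis or ovary.

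The libraries held 1356529 to 5635951 counts, and RP genes contributed 3224 to 19678 of them. Clk itself, with the ClkDN transgene, was at 4868 to 9623 CPM in the Rh1>ClkDN libraries and at 19.8 to 75.6 CPM in the Rh1>Ctrl libraries. CPM are the counts of a gene divided by the library total, after that total was scaled by its TMM factor, a correction for RNA composition, and expressed per 1e6. Summed CPM of 12 outer photoreceptor markers was 44985 to 62111 CPM in Rh1>ClkDN and 75488 to 128371 CPM in Rh1>Ctrl, and 9 of the 12 were called lower at D1 and 10 at D10. In bulk nuclei such as these, fewer cells of a type and less RNA per cell cannot be told apart. Over the 12 pairs of replicates, chi-square divided by its degrees of freedom was 3.122 to 69.97, where counting error alone would give about 1.

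RP transcripts were abundant in photoreceptor nuclei, but not the most abundant. Levels between genes are compared here as median CPM over the 12 libraries per kilobase (kb) of exon. The 79 RP genes with enough counts to be tested (at least 10 counts in at least 3 libraries, in each of the 5 fits) ranged from 6.87 to 73.6 CPM per kb, with a median of 23.0 CPM per kb and quartiles of 17.8 and 30.3 CPM per kb. All 79 were above the median of 4.67 CPM per kb over 9082 genes that passed the filter, which is a comparison that the filter on counts favours. The median RP gene stood at the 84.5th percentile of those genes, and 11 of the 79 were among the tenth with the highest level. The medians were 22.8 CPM per kb for 45 large subunit genes, 24.0 for 31 small subunit genes and 22.2 for the 3 stalk genes, which lie well within the range of each class.

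The highest level per kb was that of RpL41, which encodes the smallest ribosomal protein, at 73.6 CPM per kb. RpL22 followed at 58.8 CPM per kb and RpL3, which reaches toward the peptidyl transferase centre, at 52.2 CPM per kb. The lowest of the 79 were RpL34a at 6.87 CPM per kb, its partner RpL34b at 8.93, RpL38 at 9.41 and RpS21 at 10.1. The remaining 9 genes, all second copies of another RP gene, had no count over 20 in any library and were tested in no comparison. Their levels ran from 0 to 1.40 CPM per kb.

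**Figure D1:**
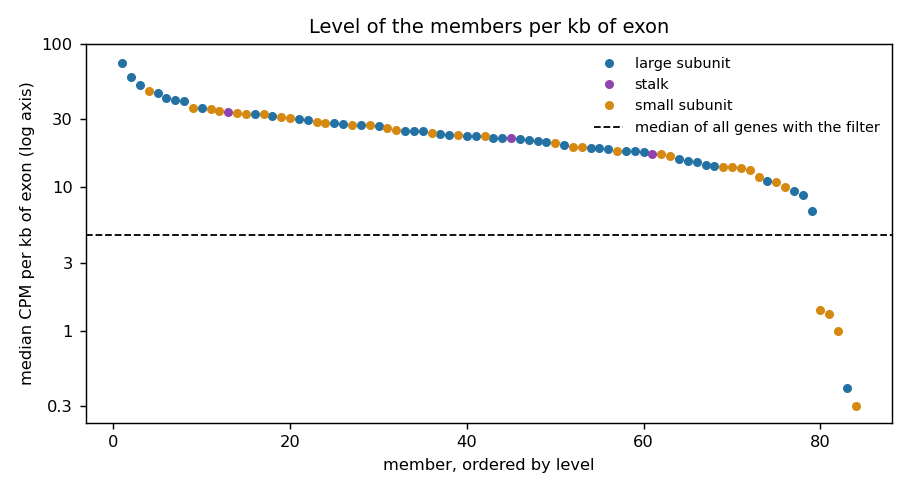
Median CPM per kb of exon over the 12 libraries (log axis) for each RP gene, in order of level and marked by subunit, with the median of all filtered genes (4.67 CPM per kb) as a dashed line. The 79 tested RP genes sit between 6.87 and 73.6 CPM per kb, and those below the dashed line are untested second copies; 4 genes with a median of 0 are not drawn.

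Of the 3 genes with the highest mean CPM, RpL3 and RpL22 overlapped between genotypes at both ages, and RpL5 only at D10. RpL3 (3R:11221894-11225173, forward strand, dm6) was at 144, 97.9 and 104 CPM in the replicates of Rh1>ClkDN at D1, at 114.98, 118 and 38.1 in Rh1>Ctrl at D1, at 128, 103 and 129 in Rh1>ClkDN at D10, and at 80.6, 228 and 138 in Rh1>Ctrl at D10. Its lowest library was replicate 3 of Rh1>Ctrl at D1 and its highest replicate 2 of Rh1>Ctrl at D10, so that the extremes lay within the control genotype. An antisense RNA, asRNA:CR31144, overlaps 412 bp of its exons on the other strand, and as the strand setting of the counting is not given in the sources used here, their reads cannot be told apart.

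RpL5, which carries the 5S ribosomal RNA into the large subunit together with RpL11, had the second highest CPM. It was at 195, 85.8 and 85.05 CPM in Rh1>ClkDN at D1, at 81.9, 61.0 and 63.8 in Rh1>Ctrl at D1, at 119, 135 and 105 in Rh1>ClkDN at D10, and at 115.05, 58.2 and 70.5 in Rh1>Ctrl at D10. All Rh1>ClkDN libraries at D1 were above all Rh1>Ctrl libraries at D1, while at D10 replicate 1 of Rh1>Ctrl overlapped the Rh1>ClkDN range. The differences between genotypes were 0.91 on the log2 scale at D1 (SE 0.36, adjusted p = 0.127) and 0.57 at D10 (SE 0.27, adjusted p = 0.167) (edgeR, quasi-likelihood, p adjusted by Benjamini-Hochberg over all genes tested).

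RpL22 (X:762560-765130, reverse strand) is a eukaryote-specific protein of the large subunit. It was at 66.2, 33.3 and 54.5 CPM in Rh1>ClkDN at D1, at 69.6, 54.3 and 26.4 in Rh1>Ctrl at D1, at 80.6, 63.1 and 70.9 in Rh1>ClkDN at D10, and at 45.0, 299.8 and 91.5 in Rh1>Ctrl at D10. The highest value came from replicate 2 of Rh1>Ctrl at D10, and the next highest was replicate 3 of that group. A long noncoding RNA, lncRNA:CR42491, shares 377 bp of its exons on the same strand, so some of these counts may belong to it.

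RP genes varied widely between replicates in some groups, and in some libraries most of them were high or low together. As a share of all counts in a library they took 0.514%, 0.143% and 0.152% in the replicates of Rh1>ClkDN at D1. The shares were 0.174%, 0.179% and 0.120% in Rh1>Ctrl at D1, 0.233%, 0.180% and 0.216% in Rh1>ClkDN at D10, and 0.156%, 0.419% and 0.219% in Rh1>Ctrl at D10. Replicates were closest in Rh1>ClkDN at D10, and the ranges overlapped in each of the 4 pairs of groups compared below. Means were 0.270% ± 0.212, 0.158% ± 0.0326, 0.210% ± 0.0266 and 0.265% ± 0.138 in that order (SD, n = 3). The 95% Wilson intervals of single libraries were 0.00638 to 0.0218 percentage points wide, so the gaps between replicates far exceeded counting error, which is all that these intervals cover.

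**Figure D2:**
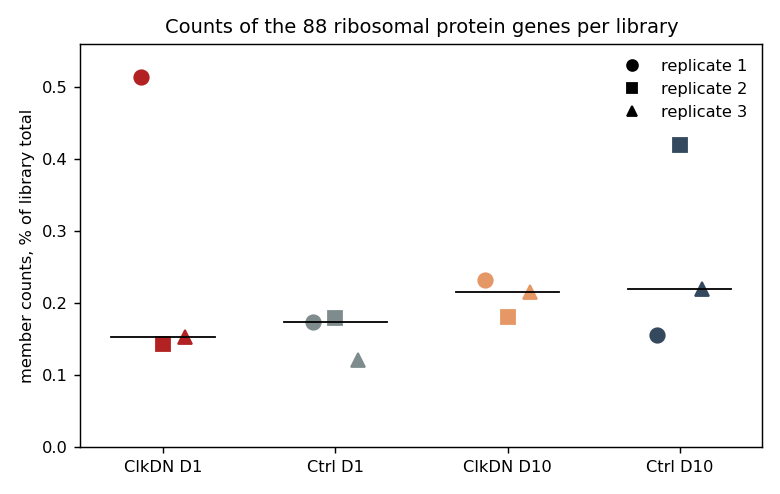
Counts of the 88 RP genes as a percent of all counts in each library (vertical axis) in the 4 groups, with the replicate number as marker shape and the group median as a black line. Replicate 1 of Rh1>ClkDN at D1 (0.514%) and replicate 2 of Rh1>Ctrl at D10 (0.419%) stand above the other libraries, which lie between 0.120% and 0.233%.

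Replicate 1 of Rh1>ClkDN at D1 had 79 of the 79 tested RP genes above both other replicates of its group, where 31.8% of 9135 genes were. Their median deviation from the mean of the other replicates was 1.36 on the log2 scale, against -0.12 over all genes, and 65 of them were more than 2-fold above. Replicate 2 of Rh1>Ctrl at D10 had 56 RP genes above both others, where 37.9% of all genes were, with a median deviation of 0.97 against -0.03. In replicate 3 of Rh1>Ctrl at D1, 71 of the 79 lay below both others, where 40.4% of all genes did, with a median of -1.01 against 0.08. These 3 libraries stand apart for RP genes, and each comparison below is given with and without them. The division was not sharp. In replicate 1 of Rh1>Ctrl at D10, 51 of the 79 lay below both others, where 34.4% of all genes did. Its median deviation was -0.74 against -0.01, and 34 RP genes were more than 2-fold below. In replicate 2 of Rh1>ClkDN at D1, 47 lay below both others, with a median of -0.70 against 0.09. For both libraries the other replicates include a high library.

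The 79 genes did not deviate alike in the 2 high libraries. In replicate 1 of Rh1>ClkDN at D1 the deviations were largest in RpLP2 (13.7-fold), RpL38 (11.8-fold), RpL39 (6.61-fold), RpL36 (6.30-fold) and RpL21 (5.87-fold), and smallest in RpL3 (1.43-fold). In replicate 2 of Rh1>Ctrl at D10 they were largest in RpS20 (5.51-fold), RpL34b (5.45-fold), RpLP2 (5.33-fold), RpL34a (4.88-fold) and RpL22 (4.39-fold). RpS29, RpS21 and RpL38 were below the other replicates there, at 0.37, 0.38 and 0.41 times their mean. Across the 79 genes the deviations in these libraries had a Pearson correlation of 0.018 and a Spearman correlation of 0.11, given as a description of genes that share 2 libraries and are not independent. The highest CPM of all 12 libraries fell in replicate 1 of Rh1>ClkDN at D1 for 43 genes and in replicate 2 of Rh1>Ctrl at D10 for 30, and the lowest fell in replicate 3 of Rh1>Ctrl at D1 for 48.

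**Figure D3:**
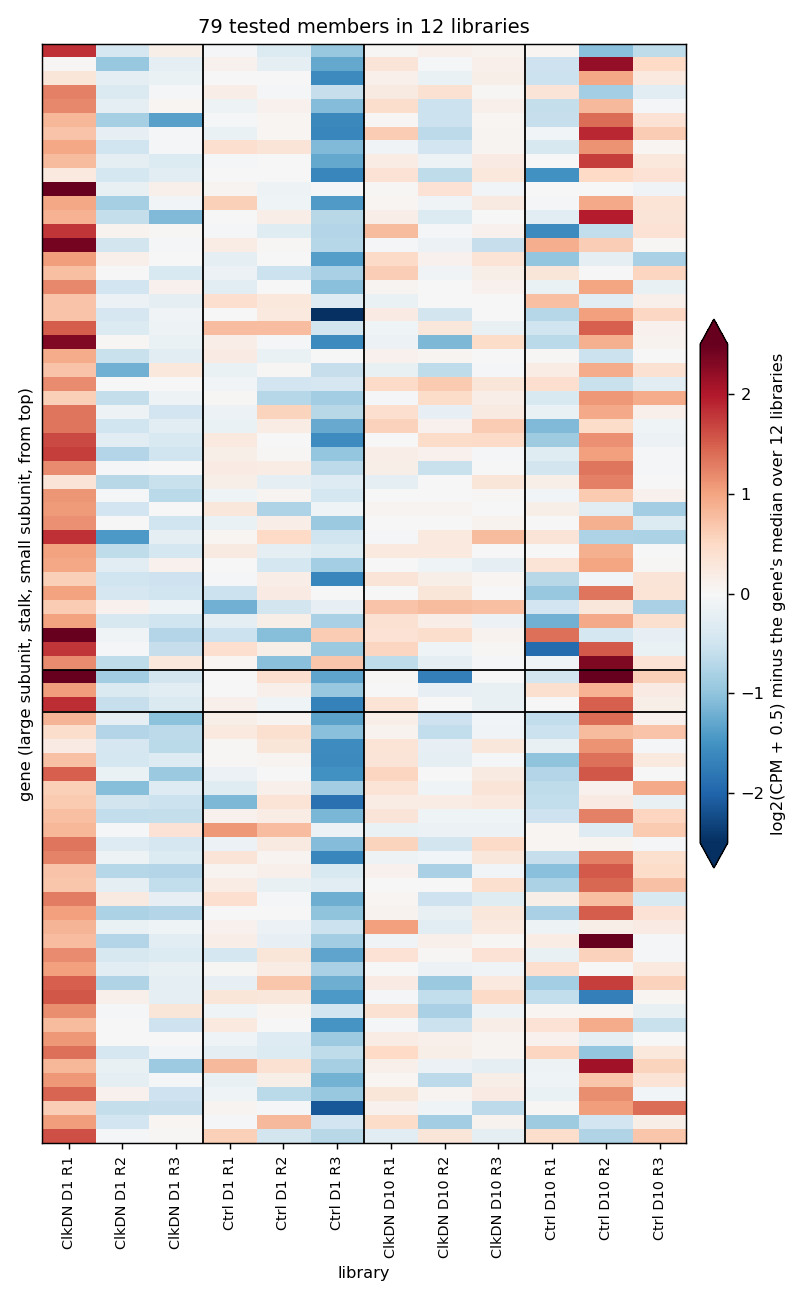
Level of the 79 tested RP genes (vertical, large subunit, stalk and small subunit from the top) in the 12 libraries (horizontal), as log2(CPM + 0.5) minus the median of the gene over all libraries, with the colour scale ending at ±2.5. The column of replicate 1 of Rh1>ClkDN at D1 is above the median throughout, that of replicate 2 of Rh1>Ctrl at D10 is above it for most genes, and that of replicate 3 of Rh1>Ctrl at D1 is mostly below.

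The median SD between replicates of log2(CPM + 0.5) was 0.83 for RP genes in Rh1>ClkDN at D1, 0.64 in Rh1>Ctrl at D1, 0.26 in Rh1>ClkDN at D10 and 0.74 in Rh1>Ctrl at D10. Over 4821 other genes of similar counts it was 0.29, 0.39, 0.24 and 0.53. Replicates of Rh1>ClkDN at D10 were thus the only ones in which RP genes varied about as little as other genes. For 2420 other genes with up to 1500 bp of exon, the median deviations were 0.03, 0.35 and -0.19 in replicate 1 of Rh1>ClkDN at D1, replicate 3 of Rh1>Ctrl at D1 and replicate 2 of Rh1>Ctrl at D10.

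Other measurements also differed in these libraries, though not always in the direction of the RP genes. Summed CPM of 6 fat body markers was 2033, 612 and 738 CPM in Rh1>ClkDN at D1, and 504 to 626 CPM in Rh1>Ctrl at D1. At D10 it was 1211 to 1578 CPM in Rh1>ClkDN, and 1475, 251 and 791 CPM in Rh1>Ctrl, where 1 of the 6 was at 0. The fat body sum was thus highest in the high library at D1 and lowest in the high library at D10. The 5 inner photoreceptor markers summed to 185, 40.6 and 47.6 CPM in Rh1>ClkDN at D1, to 29.9 to 50.7 in Rh1>Ctrl at D1, to 62.6 to 87.6 in Rh1>ClkDN at D10, and to 93.3, 72.7 and 80.4 in Rh1>Ctrl at D10. The 4 hemocyte markers were at 199, 142 and 108 CPM in Rh1>ClkDN at D1, 78.9 to 89.8 CPM in Rh1>Ctrl at D1, 172 to 180 CPM in Rh1>ClkDN at D10, and 187, 337 and 178 CPM in Rh1>Ctrl at D10, with 1 of the 4 at 0 in Rh1>ClkDN at D1 and in Rh1>Ctrl at D10. Replicate 2 of Rh1>Ctrl at D10 was also the library with the fewest counts, 1356529. The 12 outer photoreceptor markers summed to 44985, 62111 and 60436 CPM in Rh1>ClkDN at D1, and 10 of the 12 were lower in replicate 1 than in both others. In Rh1>Ctrl at D1 they summed to 128371, 117741 and 75488 CPM, with all 12 lowest in replicate 3, and at D10 to 99927, 128052 and 107013 CPM, with 6 of the 12 highest in replicate 2. The part of these markers and of depth in the RP gene shifts was not tested.

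Summed marker levels of other cell types differed between genotypes. The 8 glial markers summed to 918 to 994 CPM in Rh1>ClkDN against 214 to 278 CPM in Rh1>Ctrl at D1, and to 1450 to 1539 CPM against 299 to 361 CPM at D10. The 6 cone and pigment cell markers summed to 477 to 664 CPM against 297 to 380 CPM at D1 and 484 to 527 CPM against 424 to 467 CPM at D10. The 5 muscle markers summed to 935 to 1228 CPM against 1273 to 2025 CPM at D1 and to 961 to 1032 CPM against 1534 to 2286 CPM at D10. By single genes, 3 of 8 glial markers were called higher in Rh1>ClkDN at D1 (median log2 difference 0.55) and 2 of 7 at D10, where the median was -0.39. Among cone and pigment cell markers, 1 of 6 was called higher at D1 (median 0.32) and 0 of 6 were called at D10 (median -0.55). Among muscle markers, 1 of 5 was called lower at D1 (median -1.14) and 2 of 3 at D10 (median -1.62). At D10 the summed glial and cone and pigment cell levels were thus higher in Rh1>ClkDN while the median marker was lower. These differences accompany the genotype comparisons of RP genes, and their part in them was not tested.

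Rh1>ClkDN and Rh1>Ctrl were compared at D1 to ask how RP genes stood when the photoreceptors had just begun adult life with ClkDN. No RP gene was called in either direction, at an adjusted p under 0.05 and a change over 1.5-fold, where 10.2% of the 8220 genes tested were called higher and 5.86% lower. The median over the 79 genes was 0.59 on the log2 scale (quartiles 0.37 and 0.90, range -0.17 to 2.10), against 0.04 over all genes, and 75 of the 79 were positive. At an unadjusted p under 0.05 there were 9 of 79 (11.4%) against 28.8% of all genes. DESeq2, which called 18.4% of all genes, called 0 RP genes. With limma 0 were called as well, and its share over all genes is not given here. The lowest adjusted p was 0.127, that of RpL5. Without replicate 1 of Rh1>ClkDN the median was -0.01 and 38 of 79 were positive, and without replicate 3 of Rh1>Ctrl it was 0.38.

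The groups did not overlap for 4 tested RP genes at D1, RpL5, RpL30, RpS26 and RpL29, all higher in Rh1>ClkDN, where 18.4% of all genes did not overlap and were higher. No tested RP gene was lower without overlap, against 15.7% of all genes. RpS26, at the mRNA exit of the small subunit, was at 65.6, 30.3 and 30.8 CPM in Rh1>ClkDN and 28.4, 24.5 and 16.0 CPM in Rh1>Ctrl. RpL29 was at 38.6, 11.6 and 11.1 CPM in Rh1>ClkDN and 10.6, 8.75 and 6.29 CPM in Rh1>Ctrl. In both genes the groups were separated by a small gap, and replicate 1 of Rh1>ClkDN was far above the rest.

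RpL38 and RpLP2 lay farthest from the other RP genes at D1, more than 3 scaled median absolute deviations from their median. RpL38, an RP known in the mouse for its part in translating Hox mRNAs, was at 84.9, 8.86 and 5.56 CPM in Rh1>ClkDN and at 6.39, 4.26 and 15.1 CPM in Rh1>Ctrl, which gave 2.10 on the log2 scale (SE 0.98, edgeR adjusted p = 0.193). RpLP2, an acidic protein of the stalk that recruits elongation factors, was at 174, 10.8 and 14.6 CPM in Rh1>ClkDN and at 20.5, 27.4 and 7.86 CPM in Rh1>Ctrl, which gave 1.97 (SE 0.97, edgeR adjusted p = 0.220). In both genes only replicate 1 of Rh1>ClkDN was high and the other 2 lay within the Rh1>Ctrl range. Without it the values were -0.20 for RpL38 and -0.45 for RpLP2.

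At D10 the same comparison asked whether RP genes stood apart after longer expression of ClkDN. RpL35 was the 1 RP gene called higher (15.0% of the 7875 genes tested were), and none was called lower (8.2% of all genes were). The median over the 79 genes was -0.31 on the log2 scale (range -1.81 to 1.13) against 0.01 over all genes, with 22 of 79 positive, and 8 (10.1%) had an unadjusted p under 0.05 against 34.9% of all genes. DESeq2 called 2 higher and 1 lower, against 16.7% and 10.3% of all genes. Without replicate 2 of Rh1>Ctrl the median was 0.08, and RpL19, RpL30 and RpL35 were called higher, against 19.5% of all genes. Without replicate 1 of Rh1>Ctrl it was -0.51, RpL5 was called higher, and RpL22, RpL23A, RpL8, RpLP2, RpS14b, RpS16, RpS2 and RpS4 were called lower, against 15.9% of all genes called higher and 11.0% lower.

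RpL35 (X:5672401-5673547, forward strand) encodes a large subunit protein near the exit of the peptide tunnel. It was at 27.3, 21.2 and 25.0 CPM in Rh1>ClkDN at D10 and at 9.80, 16.6 and 10.9 CPM in Rh1>Ctrl at D10. All Rh1>ClkDN libraries were above all Rh1>Ctrl libraries, with means of 24.5 ± 3.10 against 12.4 ± 3.66 CPM (SD, n = 3), or 1.02 on the log2 scale (SE 0.31, edgeR adjusted p = 0.0457). At D1 it was at 40.7, 21.5 and 19.3 CPM in Rh1>ClkDN and at 16.3, 19.7 and 7.23 CPM in Rh1>Ctrl, where the groups overlapped at 0.98 on the log2 scale (SE 0.43, edgeR adjusted p = 0.171). The genotype effect at D10 minus that at D1 was 0.03 (SE 0.54, edgeR adjusted p = 0.991).

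The call of RpL35 at D10 was made in 8 of 18 settings, with adjusted p from 0.00119 to 0.188 over them. It was lost when any replicate of Rh1>ClkDN at D10, or replicate 1 or 3 of Rh1>Ctrl at D10, was left out, and the adjusted p was 0.00457 without replicate 2 of Rh1>Ctrl. Its log2 difference was 0.87 to 1.26 over these 6 fits.

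RpL30 (2L:19008031-19009306, reverse strand), a large subunit protein that in yeast also binds its own transcript, lay farthest above the other RP genes at D10. It was at 18.9, 20.1 and 19.6 CPM in Rh1>ClkDN and at 7.98, 13.8 and 6.28 CPM in Rh1>Ctrl, with means of 19.5 ± 0.598 and 9.37 ± 3.97 CPM (SD, n = 3). At D1 it was at 17.8, 12.2 and 10.6 CPM in Rh1>ClkDN and at 4.63, 8.08 and 9.75 CPM in Rh1>Ctrl. The groups did not overlap at either age, and replicates of Rh1>ClkDN at D10 were nearly equal. The differences were 1.13 on the log2 scale at D10 (SE 0.36, edgeR adjusted p = 0.0538) and 0.93 at D1 (SE 0.41, edgeR adjusted p = 0.170), neither of them called. The D10 difference was called in 6 of 18 settings, with adjusted p from 0.00186 to 0.187. CG31793 overlaps 202 bp of its exons on the other strand, and reads from it cannot be told apart without strand.

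Besides RpL35 and RpL30, which were higher without overlap at D10 (24.6% of all genes were), 5 RP genes were lower without overlap, RpL36, RpL40, RpLP0, RpL27 and RpS19a, against 17.5% of all genes. RpLP0, the anchor of the stalk, was at 29.3, 25.5 and 25.9 CPM in Rh1>ClkDN and 39.2, 54.0 and 33.9 CPM in Rh1>Ctrl. RpL36 was at 18.1, 16.9 and 12.4 CPM in Rh1>ClkDN and 35.6, 29.1 and 19.3 CPM in Rh1>Ctrl. In both genes the 3 Rh1>ClkDN libraries were lowest, though neither passed the test.

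RpLP2 lay farthest below the other RP genes at D10. It was at 20.6, 5.86 and 19.995 CPM in Rh1>ClkDN and 14.5, 121 and 31.0 CPM in Rh1>Ctrl, or -1.81 on the log2 scale (SE 0.76, edgeR adjusted p = 0.124). The groups overlapped, and replicate 2 of Rh1>Ctrl was the high library, as it was for most RP genes.

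Rh1>Ctrl flies at D10 and D1 were compared for the effect of age alone. The Rh1>Ctrl groups are also those to which Rh1>ClkDN was compared, so these contrasts share libraries with the genotype contrasts. No RP gene was called, where 0.193% of the 7239 genes tested were called higher and 0.332% lower. DESeq2, which called 2.61% of all genes, called 0 RP genes. With limma 0 were called as well, and its share over all genes is not given here. The median over the 79 genes was 0.50 on the log2 scale (range -0.59 to 1.57) against -0.03 over all genes, 68 of 79 were positive, and 7 (8.86%) had an unadjusted p under 0.05 against 11.0% of all genes. RpLP0, RpL40, RpL31 and RpL27 were higher at D10 without overlap, against 9.08% of all genes, and no tested RP gene was lower without overlap, against 8.98%. The lowest adjusted p was 0.310. The largest differences were 1.57 for RpS20, 1.52 for RpLP2, 1.502 for RpL22 and 1.44 for RpL4, and without a filter on low counts these 4 were called (0.565% of all genes were).

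RpS20, a protein of the head of the small subunit, was at 14.8, 11.2 and 6.92 CPM at D1 and at 14.9, 76.2 and 12.8 CPM at D10 in Rh1>Ctrl. RpLP2 was at 20.5, 27.4 and 7.86 CPM at D1 and at 14.5, 121 and 31.0 CPM at D10. In both genes 1 library, replicate 2 at D10, was far above the rest and the groups overlapped. Over the 79 genes the median was 0.15 without that library and 0.29 without replicate 3 at D1.

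Rh1>ClkDN flies at D10 and D1 were compared for the change with age in photoreceptors expressing ClkDN. No RP gene was called in either direction, where 8.45% of the 8451 genes tested were called higher and 6.18% lower. DESeq2, which called 14.7% of all genes, called 0 RP genes. With limma 0 were called as well, and its share over all genes is not given here. The median over the 79 genes was -0.28 on the log2 scale (range -2.14 to 0.51) against -0.03 over all genes, with 15 of 79 positive, and 7 (8.86%) had an unadjusted p under 0.05 against 30.1% of all genes. RpL30 was the 1 tested RP gene higher at D10 without overlap (0.51 on the log2 scale, 18.5% of all genes), and 1 was lower without overlap and not called (15.4% of all genes).

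Leaving out 1 library turned the sign of this median. Without replicate 1 at D1 the median turned to 0.44 with 71 of 79 positive, and 16 RP genes (20.3% of 79) were called higher at D10, against 11.2% of all genes. Among them were RpL8, RpL17, RpL19, RpL22, RpL23A, RpL24, RpL30, RpL37-1, RpS3, RpS7, RpS9, RpS15, RpS15Aa, RpS24 and RpS28b. Without replicate 2 at D1 the median was -0.52 and 7 were called lower (5.64% of all genes were), and without replicate 3 it was -0.53 and 6 were called lower (5.07% of all genes were). RpL23A, near the exit of the peptide tunnel, shows both readings, at 96.0, 30.3 and 20.8 CPM at D1 and 54.8, 37.0 and 55.6 CPM at D10. Its D10 libraries lay above replicates 2 and 3 at D1 and below replicate 1.

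RpLP2, RpL36, RpL38 and RpL23 lay below the other RP genes in this comparison by more than 3 scaled median absolute deviations. RpLP2 was at 174, 10.8 and 14.6 CPM at D1 and at 20.6, 5.86 and 19.995 CPM at D10, or -2.14 on the log2 scale (SE 0.78, edgeR adjusted p = 0.0715). RpL36 was at 101, 13.6 and 18.3 CPM at D1 and at 18.1, 16.9 and 12.4 CPM at D10, or -1.52 (SE 0.55, edgeR adjusted p = 0.0717). RpL38 and RpL23, whose protein faces the small subunit, were at -1.51 (SE 0.70, edgeR adjusted p = 0.160) and -1.40 (SE 0.56, edgeR adjusted p = 0.105). In each of them replicate 1 at D1 was above every other library of Rh1>ClkDN and the groups overlapped. Without it the differences were 0.31 for RpLP2, 0.0038 for RpL36, 0.75 for RpL38 and -0.05 for RpL23.

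**Figure D4:**
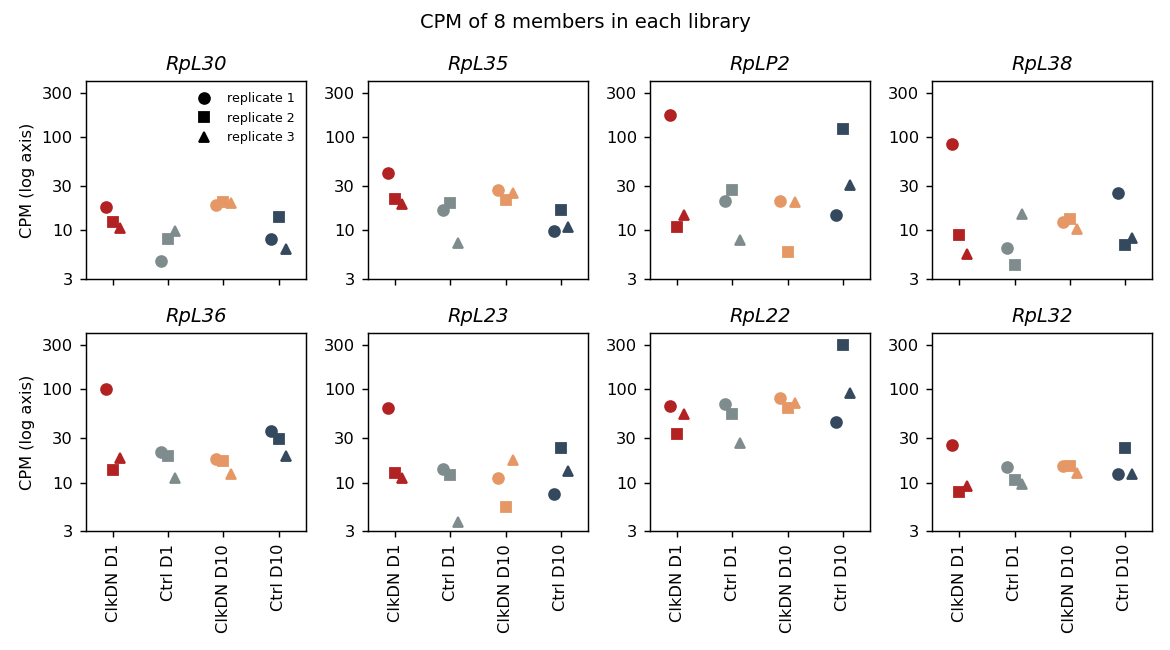
CPM (log axis) of RpL30, RpL35, RpLP2, RpL38, RpL36, RpL23, RpL22 and RpL32 in each library, grouped by genotype and age. RpL30 and RpL35 separate the genotypes at D10 (18.9 to 20.1 against 6.28 to 13.8 CPM and 21.2 to 27.3 against 9.80 to 16.6 CPM), while in RpLP2, RpL38, RpL36 and RpL23 replicate 1 of Rh1>ClkDN at D1 stands alone at the top of its group.

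Whether the genotype effect differed between ages was tested as an interaction over all 12 libraries. No RP gene was called at an adjusted p under 0.05, where 0.777% of 9135 genes were, and DESeq2, which called 2.94% of all genes, also called 0. The median over the 79 genes of the effect at D10 minus that at D1 was -0.89 on the log2 scale (range -3.77 to 0.20) against 0.00 over all genes, with 4 of 79 positive, and 5 (6.33%) had an unadjusted p under 0.05 against 13.6% of all genes. The lowest values were -3.77 for RpLP2 (SE 1.31, edgeR adjusted p = 0.217) and -2.24 for RpL36 (SE 0.81, edgeR adjusted p = 0.242). The median was -0.07 without replicate 1 of Rh1>ClkDN at D1, -0.45 without replicate 2 of Rh1>Ctrl at D10 and -0.59 without replicate 3 of Rh1>Ctrl at D1.

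All 3 libraries that stand apart were also left out together, a fit of 9 libraries chosen after seeing the data that pools the spread over groups of 2 and 3. Replicate 1 of Rh1>Ctrl at D10, which was also low for RP genes, stayed in this fit. The medians were then -0.40 for genotype at D1, 0.07 for genotype at D10, -0.05 for age in Rh1>Ctrl, 0.44 for age in Rh1>ClkDN and 0.48 for the interaction. In this fit 10 RP genes were called lower in Rh1>ClkDN at D1 (11.2% of all genes were), among them RpL7A, RpL8, RpL10Ab, RpL23A, RpL24, RpS2, RpS4 and RpS7. With age in Rh1>ClkDN 5 were called higher, RpL8, RpL19, RpL23A, RpL24 and RpS7, where 7.42% of all genes were. At D10 RpL19, RpL30 and RpL35 were called higher in Rh1>ClkDN and RpS14b lower, against 19.2% and 12.2% of all genes. With age in Rh1>Ctrl RpL38 was called higher and RpL10Ab lower, against 5.28% and 4.4% of all genes. The sign of the RP gene median thus depended on these libraries in 4 pairwise comparisons and in the interaction. The libraries were picked by the RP gene levels themselves, so the direction of each move was set by the choice. The calls in this fit are therefore a description and no test of RP genes.

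**Figure D5:**
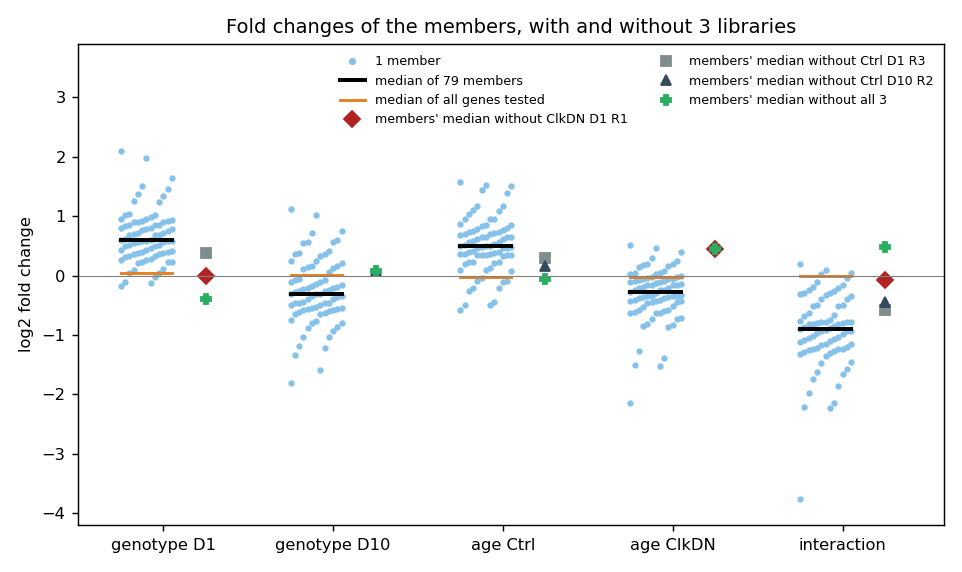
Log2 fold change of the 79 tested RP genes (points) in 4 pairwise comparisons and the interaction, with their median in black, the median of all genes in orange, and the median without each of the 3 libraries that stand apart and without all 3. The black medians at 0.59, -0.31, 0.50, -0.28 and -0.89 move to -0.40, 0.07, -0.05, 0.44 and 0.48 without the 3 libraries.

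Large and small subunit genes had similar medians. They were 0.59 and 0.52 for genotype at D1, -0.23 and -0.35 for genotype at D10, 0.47 and 0.57 for age in Rh1>Ctrl, -0.28 and -0.20 for age in Rh1>ClkDN, and -0.82 and -0.89 for the interaction, all on the log2 scale. The 3 stalk genes had larger medians, 1.24, -0.64, 1.04, -0.73 and -1.86. RpLP1 was at 48.9, 8.66 and 10.2 CPM in Rh1>ClkDN at D1, 14.5, 12.3 and 3.77 in Rh1>Ctrl at D1, 16.9, 13.1 and 11.5 in Rh1>ClkDN at D10, and 13.4, 38.1 and 14.7 in Rh1>Ctrl at D10. RpLP1 thus had the same 2 high libraries as RpLP2. With 3 genes, no test of the stalk against the rest was made.

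RpL32 (3R:30045229-30046161, reverse strand) is widely used as a reference gene in quantitative PCR. It was at 25.5, 7.88 and 9.08 CPM in Rh1>ClkDN at D1, at 14.8, 10.55 and 9.75 in Rh1>Ctrl at D1, at 14.9, 14.9 and 12.6 in Rh1>ClkDN at D10, and at 12.3, 23.5 and 12.4 in Rh1>Ctrl at D10. Its 2 highest libraries were those that were high for RP genes, and the ranges of all 4 groups overlapped. The differences were 0.36 (SE 0.50), -0.14 (SE 0.36), 0.39 (SE 0.41) and -0.02 (SE 0.39) on the log2 scale for genotype at D1 and D10 and age in Rh1>Ctrl and Rh1>ClkDN, with edgeR adjusted p of 0.696, 0.819, 0.789 and 0.978.

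Second copies of RP genes were close to silent in these nuclei, except in 2 pairs. Shares here are of the counts of a pair, pooled over the 12 libraries, and the intervals are 95% Wilson intervals. These intervals cover counting error only and not the spread between libraries, which is given below for RpS14b and RpL34a. RpS14b held 392 of 1406 counts, or 27.9% (25.6% to 30.3%), and RpL34a 260 of 785, or 33.1% (29.9% to 36.5%). Among the other 9, the highest share was that of RpS5b, with 64 of 1263 counts or 5.07% (3.99% to 6.42%). RpS15Ab held 3.69%, RpS19b 2.46%, RpS10a 2.06%, RpS28-like 1.66%, RpL22-like 1.10%, RpL10Aa 0.817%, RpL37-2 0.407% and RpS28a 0.203%.

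RpS14a and RpS14b are near-identical neighbours (X:7933742-7934677 and X:7934898-7935792), and the counting may have split reads between them. RpS14a was at 48.2, 9.65 and 14.3 CPM in Rh1>ClkDN at D1, at 14.3, 27.2 and 6.92 in Rh1>Ctrl at D1, at 19.5, 8.56 and 19.8 in Rh1>ClkDN at D10, and at 9.07, 56.8 and 25.1 in Rh1>Ctrl at D10. RpS14b was at 11.1, 4.53 and 4.63 CPM, then 7.49, 6.96 and 1.26, then 7.66, 6.53 and 4.35, then 7.26, 15.2 and 19.5 in the same order. RpS14a was the higher in every library, and the share of RpS14b ran from 15.4% to 44.4% with a median of 26.4%.

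RpL34a was at 10.3, 2.56 and 5.19 CPM in Rh1>ClkDN at D1, at 4.41, 1.80 and 7.23 in Rh1>Ctrl at D1, at 2.55, 3.61 and 4.13 in Rh1>ClkDN at D10, and at 3.99, 23.5 and 5.65 in Rh1>Ctrl at D10. RpL34b was at 29.8, 8.07 and 5.37 CPM, then 11.2, 9.20 and 4.09, then 12.2, 7.66 and 8.48, then 1.81, 24.9 and 7.33 in the same order. RpL34b was the higher in most libraries, with the exceptions of replicate 3 of Rh1>Ctrl at D1 and replicate 1 of Rh1>Ctrl at D10. The share of RpL34a ran from 16.3% to 68.8%, and its top value rested on 16 counts of the pair.

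The main copies of the other pairs were measured in every library. RpL10Ab was at 63.9, 17.5 and 20.4 CPM in Rh1>ClkDN at D1, 38.3, 38.1 and 16.0 in Rh1>Ctrl at D1, 20.6, 27.04 and 19.6 in Rh1>ClkDN at D10, and 15.6, 63.7 and 23.9 in Rh1>Ctrl at D10. RpS28b was at 49.5, 22.6 and 21.5 CPM, then 14.1, 39.7 and 8.18, then 35.6, 35.6 and 36.9, then 20.3, 36.0 and 27.4 in the same order. RpL10Ab was highest in the 2 high libraries, and RpS28b was lowest in replicate 3 of Rh1>Ctrl at D1.

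The remaining main copies shared the low library of D1 but not always the high library of D10. RpL37-1 was at 30.01, 13.8 and 13.5 CPM in Rh1>ClkDN at D1, 18.9, 22.0 and 5.98 in Rh1>Ctrl at D1, 24.6, 21.6 and 20.2 in Rh1>ClkDN at D10, and 12.0, 18.7 and 24.7 in Rh1>Ctrl at D10. RpS5a was at 41.6, 23.4 and 16.5 CPM, then 28.2, 24.0 and 8.18, then 22.8, 16.2 and 26.5, then 30.5, 45.7 and 15.9 in that order. RpS10b was at 45.4, 17.7 and 20.4 CPM, then 18.5, 23.6 and 9.12, then 22.0, 13.3 and 23.5, then 19.6, 34.6 and 26.8. All 3 were lowest in replicate 3 of Rh1>Ctrl at D1, and their groups overlapped. RpS15Aa was at 69.0, 21.5 and 20.01 CPM, then 24.2, 31.6 and 12.6, then 40.3, 19.6 and 37.8, then 27.9, 28.4 and 26.2. RpS19a was at 52.5, 21.1 and 22.4 CPM, then 26.0, 29.2 and 14.5, then 25.5, 23.2 and 24.1, then 34.5, 25.6 and 30.4. Both of these were highest in replicate 1 of Rh1>ClkDN at D1 and lowest in replicate 3 of Rh1>Ctrl at D1. In replicate 2 of Rh1>Ctrl at D10, RpS19a was the lowest of its group, RpL37-1 lay between the other replicates and RpS15Aa was close to both.

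The silent copies had only single or low double-digit counts. RpL22-like, a testis-enriched partner of RpL22, had 2, 0 and 3 counts in Rh1>ClkDN at D1, 0, 0 and 7 in Rh1>Ctrl at D1, 9, 4 and 10 in Rh1>ClkDN at D10, and 0, 3 and 0 in Rh1>Ctrl at D10. RpS19b, a germline copy, had 0 counts in all replicates of Rh1>ClkDN at D1, 3, 3 and 4 in Rh1>Ctrl at D1, 6, 13 and 5 in Rh1>ClkDN at D10, and 0, 1 and 0 in Rh1>Ctrl at D10. Both copies had more counts in each Rh1>ClkDN library at D10 than in any at D1, as CPM also. Against Rh1>Ctrl at D10 the CPM of RpS19b was higher without overlap (24.6% of the genes tested were), and that of RpL22-like overlapped. At D1 RpS19b was lower in Rh1>ClkDN without overlap (15.7% of the genes tested were), so its direction differed between the ages. Without the filter on low counts RpS19b was called higher with age in Rh1>ClkDN (5.95% of all genes were), and RpL22-like was not called in any comparison.

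The other copies were as low. RpS5b, used in the ovary, had 3, 3 and 2 counts in Rh1>ClkDN at D1, 8, 5 and 4 in Rh1>Ctrl at D1, 8, 1 and 14 in Rh1>ClkDN at D10, and 8, 2 and 6 in Rh1>Ctrl at D10. RpS15Ab had 12, 5 and 0 counts, then 7, 2 and 12, then 4, 6 and 0, then 2, 4 and 5 in that order. RpS28-like had 0, 7 and 10 counts, then 1, 0 and 2, then 2, 3 and 0, then 0 in all 3. Counts of RpS5b were lower in Rh1>ClkDN at D1 without overlap, where 15.7% of the genes tested were, and the other groups of these 3 genes overlapped. RpS10a had 7, 1 and 0 counts, then 0, 3 and 12, then 0, 0 and 1, then 0 in all 3. RpL10Aa had 0, 2 and 2 counts, then 0, 0 and 5, then 0, 2 and 1, then 0 in all 3. RpL37-2 had 4 counts in replicate 3 of Rh1>Ctrl at D1 and 0 elsewhere, and RpS28a had 1 count in that library and in 2 of the Rh1>ClkDN libraries at D10.

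Replicate 3 of Rh1>Ctrl at D1, the library with the lowest share of RP genes, had the highest share of the second copy in 7 of 11 pairs. RpS10a held 12 of 41 counts there, or 29.3% (17.6% to 44.5%), and RpS15Ab 12 of 52, or 23.1% (13.7% to 36.1%). The 9 untested copies together had 51 counts in this library, or 16.0 CPM, and 10 to 32 counts, or 2.30 to 6.95 CPM, in the other 11. A list of 15 testis and sperm genes, written after these values were seen, summed to 40.9 CPM in the same library with all 15 detected, and to 14.5 and 18.4 CPM in the other Rh1>Ctrl replicates at D1, 18.4 to 29.8 in Rh1>ClkDN at D1, 7.47 to 22.8 in Rh1>ClkDN at D10 and 5.65 to 15.9 in Rh1>Ctrl at D10. Whether RNA of that kind contributed to the counts was not tested.

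Of 18 genes that regulate growth and RP dosage, 3 (16.7%) were called higher and 2 (11.1%) lower in Rh1>ClkDN at D1, where 10.2% and 5.86% of all genes were. At D10, 3 were called higher and 2 lower, against 15.0% and 8.2% of all genes. With age, none was called in Rh1>Ctrl, and 3 were called higher (8.45% of all genes were) and 1 lower (6.18%) in Rh1>ClkDN. Their medians were -0.32, 0.24, 0.08 and 0.19 on the log2 scale. With 1 library left out, the counts at D1 were 3 higher and 1 to 4 lower. At D10 they were 2 to 4 higher and 0 to 4 lower. With age they were 0 to 1 higher and 0 lower in Rh1>Ctrl, and 3 higher and 1 to 2 lower in Rh1>ClkDN.

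Trf2, which serves RP promoters, was at 799, 1133 and 1143 CPM in Rh1>ClkDN at D1, at 228, 223 and 229 in Rh1>Ctrl at D1, at 479, 568 and 488 in Rh1>ClkDN at D10, and at 220, 152 and 174 in Rh1>Ctrl at D10. The genotypes did not overlap at either age, and Trf2 rose by 2.22 on the log2 scale at D1 (SE 0.17, edgeR adjusted p = 2.82e-05) and by 1.498 at D10, and with age in Rh1>ClkDN it changed by -1.01. These calls were made in 18 of 18 settings each, with differences from 2.16 to 2.40, 1.40 to 1.63 and -1.13 to -0.93. Replicate 1 of Rh1>ClkDN at D1, in which RP genes were highest, had the lowest Trf2 of its group.

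Xrp1, a transcription factor that responds to loss of RPs and slows growth in Minute cells, was at 132, 144 and 153 CPM in Rh1>ClkDN at D1, at 70.9, 74.1 and 60.7 in Rh1>Ctrl at D1, at 474, 470 and 499 in Rh1>ClkDN at D10, and at 176, 141 and 201 in Rh1>Ctrl at D10. All Rh1>ClkDN libraries were above all Rh1>Ctrl libraries of the same age. With age in Rh1>Ctrl, Xrp1 was also higher without overlap (9.08% of all genes were), though it was not called there. Xrp1 rose by 1.11 on the log2 scale at D1 (SE 0.16, edgeR adjusted p = 0.0014), by 1.485 at D10 (SE 0.19) and by 1.74 with age in Rh1>ClkDN (SE 0.11, edgeR adjusted p = 7.91e-08), and each call was made in 18 of 18 settings. RP genes had no call at D1, where 10.2% of all genes were called higher and 5.86% lower. At D10 they had 1, where 15.0% were called higher and 8.2% lower. A link between Xrp1 and RP gene levels was not tested.

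Myc, which activates RP genes and ribosome biogenesis in growing fly tissue, was at 225 to 308 CPM in Rh1>ClkDN at D1 and 389 to 493 CPM in Rh1>Ctrl at D1. It fell by 0.68 on the log2 scale, a call made in 8 of 18 settings, and was 0.93 higher at D10 than at D1 within Rh1>ClkDN, a call made in 17 of 18. Its antagonist Mnt fell by 1.27 at D1, called in 18 of 18. S6k, a kinase of the Tor pathway that phosphorylates RpS6, rose by 0.84 at D1. At D10 Dref rose by 1.36, and raptor and gig, components that activate and restrain Tor, fell by 1.41 and by 1.16. The kinase PEK rose by 0.77 with age in Rh1>ClkDN. The last 5 calls were made in 13 to 16 of 18 settings.

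Of the 72 mitochondrial RP genes in the table, 35 to 57 were tested in a pairwise comparison. At D1, 2 of 57 (3.51%) were called higher, against 10.2% of all genes, and at D10 3 of 36 (8.33%), against 15.0%. With age, 0 of 35 were called in Rh1>Ctrl, and 8 of 54 (14.8%) were called lower in Rh1>ClkDN, against 6.18% of all genes. The medians were 0.32, 0.35, -0.62 and -0.51 on the log2 scale. The 8 lower calls became 6 without replicate 1 of Rh1>ClkDN at D1, 4 without replicate 2 or 3 at D1, 1 without replicate 1 or 2 at D10, 2 without replicate 3 at D10, and 1 in the fit of 9 libraries. The 2 calls at D1 became 0 to 5, and the 3 at D10 became 0 to 3 higher, when 1 library was left out. mRpS11 rose by 1.81 at D1 and by 1.595 at D10, in 15 of 18 and 14 of 17 settings. Of 29 ribosome biogenesis factors, of which 18 or 19 were tested in a pairwise comparison, none was called at D1, nop5 fell by 1.47 at D10 (called in 9 of 18 settings) and Nop60B fell by 1.02 with age in Rh1>ClkDN (12 of 18), and in each of these comparisons 1 was called higher. Of 32 initiation factors eIF3d1 was called lower at D10 (-1.16, called in 11 of 18 settings), and none of 10 elongation and release factors was called in any comparison.

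Within groups, the elongation and release factors were high and low in the same libraries as the RP genes. They summed to 1758, 977 and 947 CPM in Rh1>ClkDN at D1, 1187, 1155 and 626 in Rh1>Ctrl at D1, 1301, 1193 and 1294 in Rh1>ClkDN at D10, and 1322, 2154 and 1394 in Rh1>Ctrl at D10. The initiation factors summed to 1945, 1533 and 1511 CPM, then 1787, 1789 and 1401, then 1535, 1695 and 1547, then 2135, 2432 and 1951 in the same order. In both lists all Rh1>Ctrl libraries at D10 were above all Rh1>ClkDN libraries at D10 and all Rh1>Ctrl libraries at D1. The mitochondrial RP genes summed to 334, 399 and 353 CPM, then 269, 287 and 305, then 264, 255 and 265, then 190, 240 and 195. Replicate 1 of Rh1>ClkDN at D1 and replicate 2 of Rh1>Ctrl at D10 were thus high within their groups for cytoplasmic translation genes, and the first of them was the lowest of its group for mitochondrial RP genes.

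The small subunit genes with other symbols, sta and Rack1, behaved like the RP genes chosen by symbol. The gene sta was at 45.0, 17.9 and 14.1 CPM in Rh1>ClkDN at D1, 24.9, 31.9 and 7.23 in Rh1>Ctrl at D1, 22.0, 18.5 and 28.7 in Rh1>ClkDN at D10, and 21.0, 53.3 and 40.8 in Rh1>Ctrl at D10. Rack1, a signalling scaffold on the small subunit, was at 39.7, 29.9 and 19.6 CPM, then 32.2, 37.7 and 15.1, then 33.8, 31.1 and 35.4, then 19.2, 64.4 and 49.8 in the same order. Both were highest in replicate 2 of Rh1>Ctrl at D10 and lowest in replicate 3 of Rh1>Ctrl at D1, and neither was called.

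Structure and location of the RP genes were not used in the choice by symbol, and they are given here without the shares over all genes. Of the 79 tested, 27 hold snoRNA genes, 73 in all, within their span, and 1 has a single exon, while of the 9 untested copies 5 have a single exon and none holds a snoRNA gene. The exons of 8 tested genes overlap another gene on the same strand and those of 23 overlap one on the other strand. The 88 genes lie on chromosome arms 2L (18), 2R (20), 3L (14), 3R (22) and X (14). The median deviation in replicate 1 of Rh1>ClkDN at D1 was 1.20 on the log2 scale for genes that hold snoRNAs and 1.46 for those that do not, and in replicate 2 of Rh1>Ctrl at D10 it was 1.24 and 0.75. For the 14 X-linked and 65 autosomal genes it was 1.17 and 1.39 in the first library and 0.63 and 1.06 in the second. Exon length had a Pearson correlation of -0.28 and a Spearman correlation of -0.22 with the deviation in the first library, and 0.04 and 0.03 in the second, across 79 genes that share these libraries.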

How the data were processed

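Nuclear RNA from photoreceptors was measured by RNA sequencing in 12 libraries (Ovation SoLo RNA-Seq kit). The authors deposited counts per gene for each library under a name that calls them normalized. All values are whole numbers and the totals per library differ up to 4.15-fold, so they were used as raw counts. The submitters' processing notes name Trimmomatic, STAR, SAMtools and DESeq2, without versions, and the builds dm6 and BDGP6; the strand setting of the counting is not given in the sources used here. Groups were taken from the sample titles. Gene models and coordinates came from Ensembl release 115 on dm6. Sequences of promoters and proteins were not analysed here.

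Pairs of groups were fitted with edgeR 4.0.16 (R 4.3.3; TMM, quasi-likelihood test, a minimum of 10 counts in 3 or more of the samples fitted) and called where the p adjusted by Benjamini-Hochberg over all genes tested was under 0.05 and the change over 1.5-fold. The interaction was fitted over 12 samples. Standard errors were derived from the F statistic. Alternatives were RLE and library-total scaling, DESeq2 1.42.0, limma 3.58.1 on log2(CPM + 1, 0.5 or 5), no filter or a mean count of at least 50, all samples in 1 fit, a replicate block, other thresholds and leaving out each replicate. The fits were tested on simulated data. Replicates are described as biological, and p-values rest on 3 samples a group, with which a permutation test for 1 gene, even an exact one, could not reach 0.05. Depth was 1356529 to 5635951 counts per library.

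The genes and lists were chosen with earlier results of these data known. Values are given in every sample for the 3 genes with the highest and the 3 with the lowest mean CPM, called genes, genes over 3 scaled median absolute deviations from the median of the RP genes, paralog pairs and RpL32, and for other lists at most 3 called genes higher and 3 lower, with groups that do not overlap. Other RP genes were named after their values were seen, and a few are not reported here by name. Markers of nuclear RNA and the genes Tor and Lobe were not matched by symbol and are not analysed here. Plots used Python 3.11.15 and matplotlib 3.10.9.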

Additional observations from a re-analysis of the deposited data

How the results depend on the processing

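3 libraries stand apart for RP genes, 1 of them the shallowest (1356529 counts), and the sign of the median over 79 RP genes turned in every pairwise comparison when all 3 were left out. Leaving out 1 replicate at a time, the median ranged from -0.011 to 0.89 for genotype at D1, from -0.51 to 0.082 for genotype at D10, from 0.15 to 0.86 for age in Rh1>Ctrl and from -0.53 to 0.44 for age in Rh1>ClkDN. The fit of 9 libraries was chosen after seeing the data, by the RP gene levels, which set the direction of each move. This fit kept replicate 1 of Rh1>Ctrl at D10, also low for RP genes. It gave -0.40, 0.074, -0.053 and 0.44. It called 10 RP genes lower at D1, 3 higher and 1 lower at D10, 1 higher and 1 lower with age in Rh1>Ctrl, and 5 higher with age in Rh1>ClkDN. The causes were not tested.

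Genes called higher at D10 numbered 1 as reported, 0 with library-total scaling, 0 with limma on log2(CPM + 1) or log2(CPM + 0.5), 0 at an adjusted p under 0.01, 2 with limma on log2(CPM + 5), 2 with DESeq2, 2 where the mean count had to reach 50, and 0 to 3 with 1 replicate left out; DESeq2 called 1 lower (RpLP2), and leaving out a replicate 0 to 8. At D10 DESeq2 called 16.7% of all genes higher and 10.3% lower. Shares over all genes for the scaling, limma, mean count and stricter settings are not given here. With all 12 samples in 1 fit, 1 gene (RpS26) was called higher at D1, against 9.94% of all genes. Without the filter, 4 were higher with age in Rh1>Ctrl (0.565% of all genes were). With age in Rh1>ClkDN 1 was higher (5.95% of all genes were) and 7 were lower. In the interaction 1 was called (RpLP2, -3.65, edgeR adjusted p = 0.0372). The 7 were RpL21, RpL23, RpL36, RpL38, RpL41, RpLP2 and RpS27A. Shares over all genes for the 7 and for the interaction are not given here, so these counts have no background beside them. Leaving out 1 replicate gave 0 to 16 higher and 0 to 7 lower with age in Rh1>ClkDN.

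Replicate numbers did not pair the samples (same-number correlations of -0.108 to 0.0376). With the replicate block the medians were 0.53, -0.20, 0.47 and -0.11, with 1 RP gene higher (10.4% of all genes) and 0 lower at D1, 0 called at D10, 0 with age in Rh1>Ctrl, 0 higher and 3 lower with age in Rh1>ClkDN (RpL23, RpL36, RpLP2; 6.46% of all genes) and 0 in the interaction.

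Signs turned in the fit of 9 libraries for RpLP2 (D1 -0.91, age in Rh1>ClkDN 0.31, interaction 0.35), RpL38 (age in Rh1>ClkDN 0.74), RpL36 (age in Rh1>ClkDN 0.0030) and RpL32 (D1 -0.58, D10 0.22, age in Rh1>Ctrl -0.042, age in Rh1>ClkDN 0.76). RpL32 with age in Rh1>ClkDN was also 0.17, 0.18 and 0.10 with limma and 0.16 with the block. With 1 replicate left out, RpLP2 ranged from -0.45 to 2.504 at D1 and from -2.66 to 0.31 with age in Rh1>ClkDN, RpL38 from -0.20 to 2.78 and from -2.03 to 0.75, RpL36 from -1.96 to 0.0038 with age in Rh1>ClkDN, and RpL32 from -0.38 to 0.69 at D1, from -0.32 to 0.22 at D10 and from -0.33 to 0.76 with age in Rh1>ClkDN. The mean share of RP genes became 0.201% in Rh1>Ctrl at D1 and 0.270% in Rh1>ClkDN at D10 when Clk and the 20 genes with the most counts were left out of the total, and 0.166% in Rh1>ClkDN at D10 without the 5 highest RP genes.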
